A study of Mus musculus with 4 samples.

Results

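Lower-insulin beta cells of mouse pancreatic islets are described here. They are cell barcodes in which the 2 insulin genes, Ins1 and Ins2, gave 20% to under 35% of all unique molecular identifiers (UMIs, 1 per captured RNA molecule). Members also needed 1000 UMIs and 500 detected genes or more, with mitochondrial RNA no higher than 15%. The other hormone genes Gcg, Sst, Ppy and Pyy each stayed under 2%, and UMIs of fewer than 4 of 10 cell cycle genes were present. The rule found 1288 members among 35079 barcodes listed, of which 26121 passed the depth, gene and mitochondrial limits. Since insulin RNA chose the members, its level in them is a description and no result rests on it.

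Islets came from female mice on a C57b6/J background. Every mouse, of either genotype, was injected with diphtheria toxin 4 times, at intervals of 48 hours, starting on postnatal day 2. CCR2-DTR+/- mice carry a transgene that places the toxin receptor on cells expressing the chemokine receptor CCR2, mainly monocytes and their descendants, and the WT littermates lack it. Each library was made on the 10x Chromium platform from 300 islets pooled from 2 to 3 females, with 1 library each for CCR2-DTR at 1 month, WT at 1 month, CCR2-DTR at 6 months and WT at 6 months. These libraries gave 690, 167, 210 and 221 members in that order, against 2408, 3319, 1239 and 637 insulin-rich beta cells, which met the same limits with insulin at 35% or more. With 1 library a group, no test between libraries was made. Intervals of shares and of ratios between libraries cover counting error only. Ccr3, a neighbour of Ccr2 on the chromosome, followed the genotype labels in the members. It had UMIs in 35 of 690 and 10 of 210 CCR2-DTR members, against 0 of 167 WT members at 1 month (exact upper limit 2.19%) and 0 of 221 at 6 months (exact upper limit 1.66%). The depth of the libraries ranged from 60315217 to 121292320 UMIs.

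Beta cells make insulin from genes whose promoters hold short elements called E boxes and A boxes, bound by NEUROD1 with its partners and by PDX1. Mature beta cells also express the glucose transporter Slc2a2, the glucose-6-phosphatase subunit G6pc2, the peptide Ucn3 and the amyloid peptide Iapp, which is stored in the insulin granule. The load of proinsulin makes the endoplasmic reticulum's folding machinery, read out by genes of the unfolded protein response, a large part of the cell's work.

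The 250 bases before the start of 4 genes are shown, because Ins1 defines the members and Iapp, Ucn3 and G6pc2 were lower in them relative to the RNA of genes other than insulin. They come from RefSeq (GRCm38.p6), read 5′ to 3′ on the gene's strand, and lie at chr19:52264047-52264296 on the plus strand for Ins1, chr6:142298175-142298424 on the plus strand for Iapp, chr13:3945350-3945599 on the minus strand for Ucn3 and chr2:69210823-69211072 on the plus strand for G6pc2, the upstream one of 2 listed starts. Capitals mark the E box letters CATCTG and the A box core TAAT on either strand.
Ins1: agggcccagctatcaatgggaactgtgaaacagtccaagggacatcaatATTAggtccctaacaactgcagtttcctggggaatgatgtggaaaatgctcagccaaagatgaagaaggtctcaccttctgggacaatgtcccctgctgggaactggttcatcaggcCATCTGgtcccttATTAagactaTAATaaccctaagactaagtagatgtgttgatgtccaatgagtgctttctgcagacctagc
Iapp: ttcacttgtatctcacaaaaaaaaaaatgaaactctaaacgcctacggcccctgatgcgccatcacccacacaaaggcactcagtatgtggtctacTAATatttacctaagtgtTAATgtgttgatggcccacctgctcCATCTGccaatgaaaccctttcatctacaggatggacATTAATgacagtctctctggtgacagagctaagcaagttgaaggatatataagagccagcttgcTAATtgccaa
Ucn3: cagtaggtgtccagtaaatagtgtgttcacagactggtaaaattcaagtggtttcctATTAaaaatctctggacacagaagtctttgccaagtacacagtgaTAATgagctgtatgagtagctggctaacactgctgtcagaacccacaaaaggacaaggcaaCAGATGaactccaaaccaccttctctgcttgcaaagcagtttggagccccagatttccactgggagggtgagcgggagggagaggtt
G6pc2: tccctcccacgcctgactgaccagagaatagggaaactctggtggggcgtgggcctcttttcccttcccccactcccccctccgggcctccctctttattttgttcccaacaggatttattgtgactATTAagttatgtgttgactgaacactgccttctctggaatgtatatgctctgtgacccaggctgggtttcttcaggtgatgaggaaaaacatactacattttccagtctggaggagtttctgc
The E box letters occurred once each in the Ins1, Iapp and Ucn3 windows and 0 times in the G6pc2 window. The A box core occurred 3 times for Ins1, 5 times for Iapp, where 2 of the copies overlap, 2 times for Ucn3 and 1 time for G6pc2. Among 32851 windows of the same length, 14.4% held the E box letters and 54.9% the A box core. A match is a run of letters and no measured binding site.

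The members fell into a shallow and a deep part. Under 3000 UMIs lay 249 of 690 members (36.1%) in CCR2-DTR at 1 month, 29 of 167 (17.4%) in WT at 1 month, 140 of 210 (66.7%) in CCR2-DTR at 6 months and 168 of 221 (76.0%) in WT at 6 months. Among insulin-rich cells the share under 3000 UMIs was 1.33%, 1.30%, 3.87% and 1.73% in the same order. Few members lay between 3000 and 8000 UMIs (52, 12, 12 and 18). The shallow members gave 5.70%, 2.99%, 13.5% and 21.2% of all member UMIs, so summed counts come mostly from the deep ones.

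**Figure D1:**
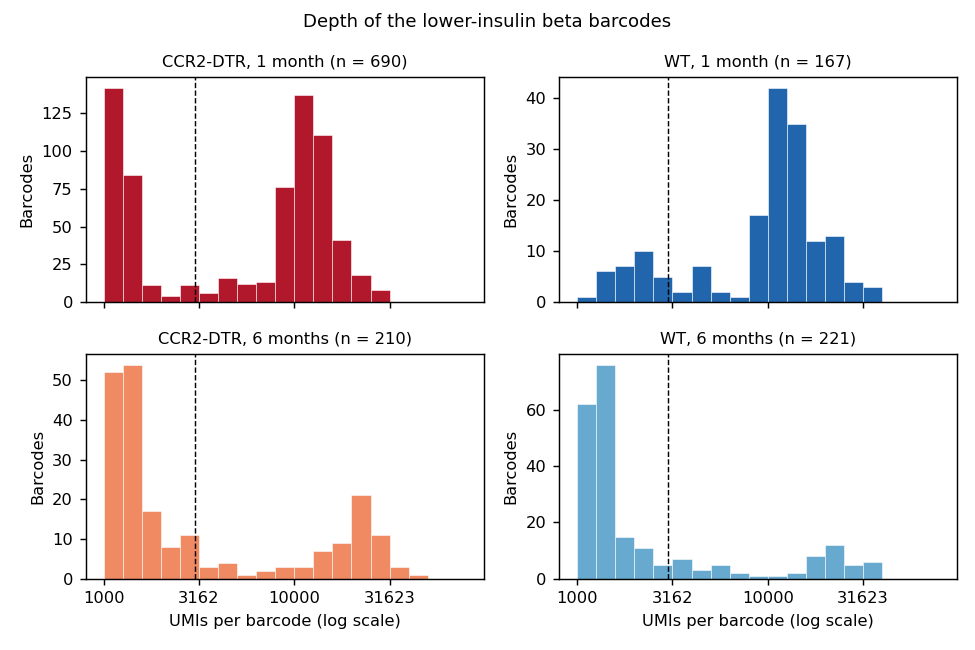
Number of member barcodes (vertical axis) by UMIs per barcode (horizontal axis, log scale) in each library, with a dashed line at 3000 UMIs. Each library has a group of members above 8000 UMIs, and all but WT at 1 month have a second group near 1000 to 2000 UMIs. Under 3000 UMIs lie 36.1% and 17.4% of members at 1 month in CCR2-DTR and WT, and 66.7% and 76.0% at 6 months.

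Shallow members carried a large share of RNAs that stay in the nucleus. Malat1, a nuclear long non-coding RNA, made up 8.83%, 3.49%, 5.02% and 6.24% of UMIs in shallow members of CCR2-DTR at 1 month, WT at 1 month, CCR2-DTR at 6 months and WT at 6 months, against 1.26% to 1.32% in insulin-rich cells. Meg3, another long non-coding RNA, made up 0.825%, 0.312%, 0.817% and 0.872%, against 0.159% to 0.180%. Xist, which coats the silenced X chromosome, made up 0.403%, 0.148%, 0.542% and 0.524%, against 0.0657% to 0.0895%. All 3 were higher in the shallow members of each library than in its insulin-rich cells. Iapp was lower there, at 57509 CPM (UMIs scaled to a fixed total of UMIs outside the genes the rule uses) in CCR2-DTR at 1 month, 86110 in WT at 1 month, 31151 in CCR2-DTR at 6 months and 29798 in WT at 6 months, against 106778 to 129669 CPM in insulin-rich cells. The median mitochondrial share of shallow members was 3.36% to 6.31%, against 5.33% to 5.94% in insulin-rich cells. In members with 3000 UMIs or more it was 6.74%, 6.08%, 9.57% and 8.67% in the same order, above the insulin-rich cells of each library.

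Both parts held UMIs of beta cell transcription factors that the rule did not use. Nkx6-1 had 101, 25, 60 and 85 UMIs in the shallow members of the 4 libraries in the order above, Mafa 74, 17, 49 and 91, and Pdx1 37, 7, 20 and 30. The alpha cell factor Irx2 had 2, 0, 0 and 0 UMIs in shallow members. Their 219357, 36581, 145101 and 164271 UMIs outside the genes the rule uses are too few to place its level. Irx2 stood at 10.6, 7.65, 8.815 and 9.06 CPM in the other members, against 6.57, 5.20, 3.94 and 2.29 CPM in insulin-rich cells. The difference between classes did not pass the test described further on (log2 fold change 0.71, edgeR adjusted p = 0.111). Scaled for depth, Nkx6-1 was at 460, 683, 414 and 517 CPM in shallow members and at 599, 613, 548 and 502 CPM in the other members, against 635, 703, 693 and 747 CPM in insulin-rich cells. As a rough view of free RNA, insulin was read in barcodes with 4 or more endothelial markers and under 20% insulin. In these, Ins1 and Ins2 together gave 4.53%, 2.43%, 3.65% and 3.30% of UMIs. The limit of 20% caps this value, and a beta cell mixed in below it would add to it, so free RNA alone was not measured. These barcodes had medians of 4066, 3278, 5823 and 5882 UMIs, against 1232, 2000, 1354 and 1342 in shallow members. Free RNA can be a larger share of a shallower barcode, so this comparison does not cover shallow members. Their Gcg share was 1.335%, 0.334%, 0.603% and 0.749%, against 0.0704% to 0.2095% in insulin-rich cells. The part of free RNA in shallow members was not tested, and neither was their label of beta cell. Of the markers named for these cells, Chga, a granule protein, stood at 11554 to 19750 CPM in members and 13067 to 15946 in insulin-rich cells. Car15, a carbonic anhydrase, stood at 289, 138, 75.6 and 65.6 CPM in members and at 252, 151, 70.5 and 83.2 CPM in insulin-rich cells. Neither Chga (log2 fold change -0.09, edgeR adjusted p = 0.584) nor Car15 (-0.07, edgeR adjusted p = 0.748) passed the test described further on.

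Within the members, insulin spread over the whole band. Its median was 28.7%, 31.2%, 25.5% and 24.3% of UMIs in the 4 libraries in the same order. The upper edge of the band cut a continuous range: 79, 31, 13 and 8 members had 34% to under 35%, and 83, 36, 20 and 6 insulin-rich cells had 35% to under 36%. At the lower edge, 34, 2, 24 and 33 members had 20% to under 21%, and 28, 2, 35 and 45 barcodes outside had 19% to under 20%.

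Clustering the members alone, without the genes the rule uses, gave 8 clusters, given here by leading genes and with no test. The first held 391 members at a median of 12401 UMIs and was led by Nnat, Ucn3, Mafa and Atf5, with Ucn3 at 652 CPM against 225 CPM in all other members and Mafa, an activator of the insulin gene, at 652 against 240 CPM. Another held 199 members at 11428 UMIs, led by Gpx3, a secreted glutathione peroxidase, at 560 against 68.1 CPM and Rbp4, a retinol carrier, at 1097 against 144 CPM. Rbp4 is also on the delta cell list, and Tspan8, another of its leading genes, on the gamma cell list. The 2 clusters led by nuclear non-coding RNAs held 294 and 189 members at medians of 1396 and 1225 UMIs. The first of these held 101 of the 210 CCR2-DTR and 159 of the 221 WT members at 6 months, and the other, where Malat1 reached 161246 CPM, held 173 of the 690 CCR2-DTR members and 2 of the 167 WT members at 1 month. Of the remaining clusters, 96 members were led by endothelial genes such as Flt1 and Kdr, 25 by mesenchymal genes such as Col3a1 and Dcn, and 19 by macrophage genes such as Cd74 and C1qb. The last, with 75 members, was led by the digestive enzyme Ctrb1 and the ferritin chain Ftl1. The share of barcodes with a Scrublet doublet score above 0.25 was 35.4% in the endothelial-led, 21.1% in the macrophage-led cluster, 3 of 25 barcodes in the mesenchymal-led one, 7.54% in the cluster led by Gpx3 and 1.33% in the one led by Ctrb1, against 0.512% in the cluster led by Nnat.

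Members more often carried markers of a second cell kind than insulin-rich cells thinned to the same total of UMIs. After every barcode with enough UMIs was thinned to 5000 UMIs, 3 or more markers of 1 other kind (endothelial, mesenchymal, macrophage, lymphocyte or Schwann) were found in 42 of 416 members in CCR2-DTR at 1 month (10.1%, exact interval 7.37% to 13.4%), against 35 of 2350 insulin-rich cells (1.49%, 1.04% to 2.07%). In WT at 1 month it was 21 of 129 (16.3%, 10.4% to 23.8%), against 51 of 3241 (1.57%, 1.17% to 2.06%). In CCR2-DTR at 6 months it was 11 of 61 (18.0%, 9.361% to 29.98%), against 23 of 1167 (1.97%, 1.25% to 2.94%). In WT at 6 months it was 5 of 42 (11.9%, 3.98% to 25.6%), against 5 of 624 (0.801%, 0.261% to 1.86%). The share was higher in members in 4 of 4 libraries, with no overlap between the classes (exact sign-flip test over the libraries, two-sided p = 0.125, the smallest that 4 pairs allow). Scrublet scores above 0.25 followed the same order, at 6.20% to 14.8% of the thinned members against 1.02% to 1.80% of the insulin-rich cells (4 of 4 libraries, exact p = 0.125). Endothelial markers were the kind found most often at 1 month and in CCR2-DTR at 6 months, in 28, 15 and 6 members, and macrophage markers were found in 3 members against 2 with endothelial markers in WT at 6 months. A second cell in a barcode lowers its insulin share, so the rule itself favours such barcodes as members, and the direction is in part built in. The 5000 UMIs also include insulin, so members kept more UMIs of other genes than insulin-rich cells. Whether these barcodes hold more than 1 cell was not tested beyond these scores and markers.

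**Figure D2:**
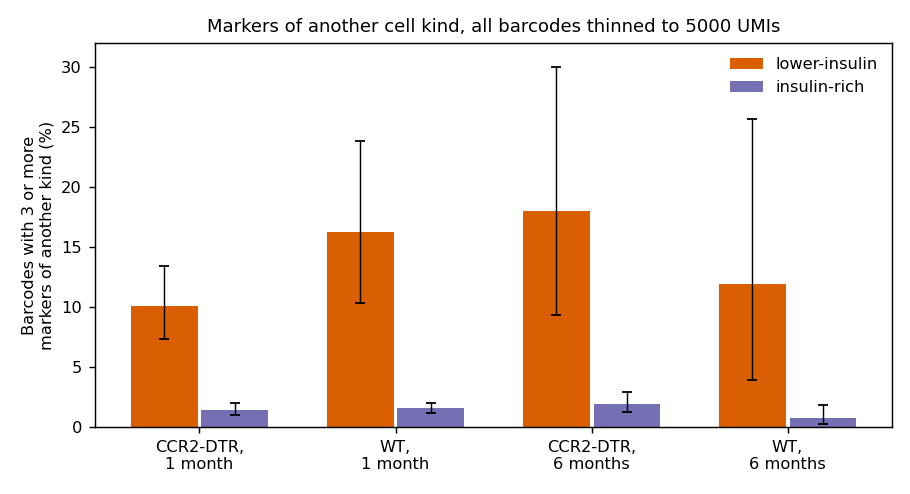
Share of barcodes with 3 or more markers of 1 other cell kind after thinning to 5000 UMIs, for members (left bar) and insulin-rich cells (right bar) of each library; lines are exact 95% intervals. Members stand at 10.1% to 18.0% and insulin-rich cells at 0.801% to 1.97%.

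The results below are therefore given for all members and again for deep unmixed barcodes, a filter chosen after the data were seen: at least 5000 UMIs, no Scrublet score above 0.25 and fewer than 3 thinned markers of any of the other kinds above. The filter uses no alpha, delta or gamma cell markers, so barcodes that mix such cells with beta cells can remain. It left 365, 106, 49 and 35 members and 2308, 3170, 1134 and 616 insulin-rich cells. In these, a member held a median of 8010, 8498, 13592 and 14402 UMIs of genes other than insulin, against 8190, 8601, 15020 and 15480 in insulin-rich cells, which is 0.978, 0.988, 0.905 and 0.930 of their level. Its insulin UMIs, which the rule used, were at 0.591, 0.439, 0.493 and 0.417 of the insulin-rich median. The median mitochondrial share was 6.85%, 6.28%, 9.76% and 7.36% in these members, against 5.97%, 5.41%, 6.095% and 5.32% in these insulin-rich cells. Ppy, which the rule limits, stood at 0.106%, 0.131%, 0.0921% and 0.334% of UMIs in these members. In all insulin-rich cells it stood at 0.0362%, 0.0362%, 0.0212% and 0.0429%. Sst stood at 0.0715%, 0.07875%, 0.0220% and 0.0175%, against 0.0165%, 0.0212%, 0.01335% and 0.0238%, lower in WT at 6 months.

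The share of lower-insulin cells among non-dividing beta cells differed between genotypes in opposite directions at the 2 ages. At 1 month it was 22.3% in CCR2-DTR (690 of 3098, exact interval 20.8% to 23.8%), against 4.79% in WT (167 of 3486, 4.11% to 5.55%), a ratio of 4.65 (3.95 to 5.47). At 6 months it was 14.5% in CCR2-DTR (210 of 1449, 12.7% to 16.4%), against 25.8% in WT (221 of 858, 22.9% to 28.8%), a ratio of 0.563 (0.475 to 0.666). With at least 3000 UMIs the shares were 15.7% against 4.04% at 1 month (ratio 3.87, 3.22 to 4.66) and 5.55% against 7.81% at 6 months (ratio 0.711, 0.504 to 1.00), CCR2-DTR before WT. The deep unmixed barcodes gave 13.7% against 3.24% (ratio 4.22, 3.42 to 5.21) and 4.14% against 5.38% (ratio 0.770, 0.505 to 1.18). The difference at 1 month was thus present at each depth, and that at 6 months lay within counting error once shallow barcodes were left out. Insulin-rich cells at 1 month also had a lower median insulin share in CCR2-DTR, 42.9% against 49.6% in WT, and 47.2% against 47.4% at 6 months. At 1 month 196 CCR2-DTR and 1556 WT deep unmixed cells had 50% insulin or more. Whether the share of members reflects a shift over all beta cells was not tested. With age, the share in WT was 25.8% at 6 months, against 4.79% at 1 month, a ratio of 5.38 (4.46 to 6.48) that was 1.66 (1.15 to 2.41) in deep unmixed barcodes. In CCR2-DTR the ratio of 6 months over 1 month was 0.651 (0.565 to 0.750) in all and 0.303 (0.227 to 0.406) in deep unmixed barcodes. With 1 library a group, library and group cannot be told apart.

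**Figure D3:**
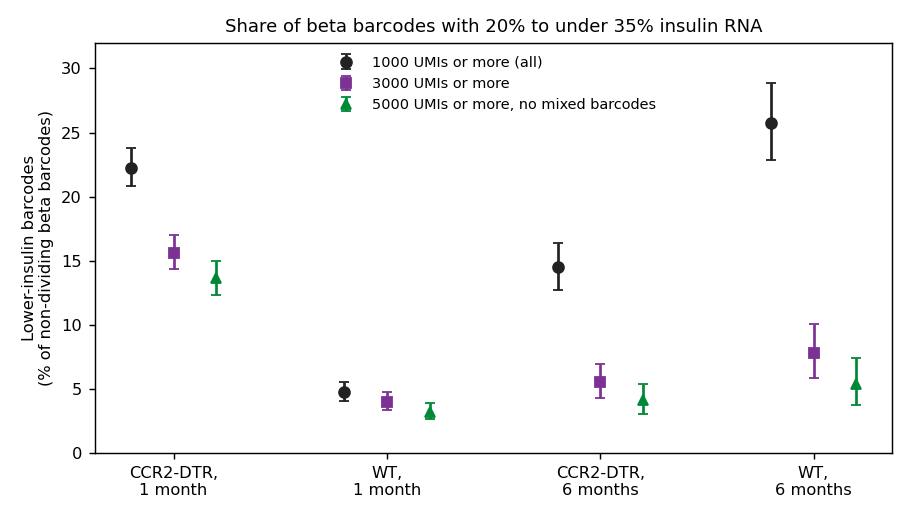
Lower-insulin members as a percentage of non-dividing beta barcodes in each library, with exact 95% intervals, for all barcodes, those with at least 3000 UMIs and deep unmixed ones. CCR2-DTR at 1 month stands above WT at 1 month at each depth (22.3%, 15.7% and 13.7% against 4.79%, 4.04% and 3.24%), and the 6-month shares drop to 4.14% and 5.38% in deep unmixed barcodes of CCR2-DTR and WT.

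Lower-insulin cells were next compared with insulin-rich cells across genes, with counts summed per library and class and the library as a block (edgeR quasi-likelihood test with Benjamini-Hochberg adjustment, 12895 genes tested, the genes the rule uses left out of table and library sizes). Over all members 940 genes (7.29%) were higher and 557 (4.32%) lower at an adjusted p under 0.05, 11.6% of genes tested. Deep unmixed barcodes gave 123 higher (0.983%) and 139 lower genes (1.11%), 2.09% of 12516 tested. Of these 262 calls, 230 (87.8%) were also called over all members, 229 of them in the same direction, and they are 15.4% of the 1497 calls over all members. On library totals without TMM factors 1240 were higher and 289 lower. With library sizes over all UMIs, which hold the insulin UMIs the rule uses, 8126 were higher and 24 lower, and the median log2 fold change of all genes was 0.47. Leaving out 1 library left 741 to 909 higher and 196 to 525 lower genes, with 299 lower without CCR2-DTR at 1 month and 196 lower without CCR2-DTR at 6 months. The p-values measure how the difference between classes varies over 4 libraries, which themselves differ in genotype and age.

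The genes that stood highest over all members are known from other cell kinds. The 12 named by rule were Apoe, H2-Ab1, H2-Eb1, Srgn, Nrp1, H2-Aa, Ly6a, Nfib, Podxl, Mgll, Col4a2 and Rgcc, with log2 fold changes from 3.79 to 4.31. H2-Ab1, a chain of MHC class II, stood at 62.0, 89.9, 158 and 443 CPM in members of CCR2-DTR at 1 month, WT at 1 month, CCR2-DTR at 6 months and WT at 6 months, against 3.40, 8.31, 3.94 and 19.2 CPM in insulin-rich cells. A single barcode held 31.5%, 55.0%, 58.1% and 62.8% of the members' H2-Ab1 UMIs in these libraries. H2-Ab1 in deep unmixed barcodes had a log2 fold change of -0.16 (edgeR adjusted p = 0.952), H2-Aa one of -1.50 (0.237), and Srgn, Nrp1, Nfib, Podxl and Mgll fell under the count filter. Apoe, a lipid carrier, was called there (1.29, SE 0.21, edgeR adjusted p = 4.4e-04), but 54.4% and 53.8% of its UMIs in CCR2-DTR and WT at 1 month came from a single barcode each, and 12 of 15 in WT at 6 months. The marker lists were counted in the same way. Over all members 12 of 12 endothelial, 11 of 12 mesenchymal, 9 of 10 macrophage and 16 of 17 digestive enzyme genes tested were higher, and in deep unmixed barcodes 0 of 7, 1 of 3, 0 of 4 and 0 of 15 (edgeR; at an unadjusted p under 0.05 in either direction 1, 3, 3 and 1). The filter itself uses the endothelial, mesenchymal and macrophage markers, so their lower counts in deep unmixed barcodes follow from it and are no result. Digestive enzymes are not among its markers, but its UMI floor leaves out shallow members. With only shallow barcodes left out, 1 of 16 tested was higher. With the planned second filter described further on, which adds no UMI floor, it was 9 of 16. Shallow members held them at 0.145%, 0%, 0.401% and 0.0655% of UMIs in the libraries in the order above. The other members held 0.02345%, 0.0019%, 0.0317% and 0.00652%, more than shallow ones only in WT at 1 month. The part of each step was not tested. The summed endothelial level was 0.0458% to 0.110% of UMIs in members and 0.00243% to 0.00449% in insulin-rich cells, and 0.00112% to 0.00229% in deep unmixed members. The part of these other cell kinds in the remaining differences was not tested beyond the filter for deep unmixed barcodes.

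Many beta cell maturity genes were lower in members, over all and in deep unmixed barcodes. Of 31 beta identity genes tested 14 were lower and 0 higher over all members (list median -0.23, all genes -0.01), and 10 were lower and 1 higher in deep unmixed barcodes (median -0.15). A planned second filter, described further on, left 3 lower and 0 higher (median -0.15), with 21 of 31 below 0. On sizes over all UMIs the list's median was 0.26 where all genes had 0.47, and 17 of its genes were called higher and 3 lower, so its direction against 0 depends on that scale while its place below the median gene does not. Ucn3 stood at 496, 406, 377 and 268 CPM in members, against 673, 654, 594 and 538 CPM in insulin-rich cells of CCR2-DTR at 1 month, WT at 1 month, CCR2-DTR at 6 months and WT at 6 months, and the classes did not overlap (log2 fold change -0.75, SE 0.09, edgeR adjusted p = 1.4e-06). It remained lower in deep unmixed barcodes (-0.56, edgeR adjusted p = 6.0e-05). G6pc2, which opposes glucose phosphorylation in beta cells, stood at 1435, 1342, 1172 and 888 CPM in members, against 1910, 1745, 1848 and 1772 CPM (log2 fold change -0.67, edgeR adjusted p = 1.2e-05; -0.65 and 2.5e-04 in deep unmixed barcodes). Slc2a2 stood at 812, 760, 803 and 647 CPM, against 983, 1063, 1094 and 995 CPM (-0.52, edgeR adjusted p = 5.5e-05; -0.49 and 2.9e-04). For G6pc2 and Slc2a2 too the highest member value lay below the lowest insulin-rich value. Mafa was lower in 4 of 4 libraries, with the smallest gap in CCR2-DTR at 1 month (442 against 489 CPM) and the widest in WT at 6 months (412 against 834 CPM; log2 fold change -0.55, edgeR adjusted p = 7.6e-04; -0.48 and 0.033 in deep unmixed barcodes). Iapp fell by 0.49 on the log2 scale over all members (edgeR adjusted p = 2.8e-04) and by 0.25 in deep unmixed barcodes (edgeR adjusted p = 0.0026). As a share of all UMIs, insulin included, Iapp was at 6.53%, 5.51%, 4.87% and 4.44% in members, against 6.455%, 5.01%, 4.92% and 4.94% in insulin-rich cells, higher in both libraries at 1 month, so its fall is relative to genes other than insulin. Defb1, a defensin named as a marker of these cells, fell by 0.64 and 0.47. The prolactin receptor Prlr fell by 0.46 and 0.55 and the incretin receptor Glp1r by 0.35 and 0.30. Nkx6-1 fell by 0.38 over all members, and was at -0.24 in deep unmixed barcodes, where the edgeR adjusted p was 0.127. Nnat, which acts in the processing of preproinsulin, was the exception: it was at 0.40 over all members (edgeR adjusted p = 0.114) and higher in deep unmixed barcodes (0.78, edgeR adjusted p = 0.0066), at 651, 448, 61.9 and 148 CPM in members and 333, 197, 132 and 54.4 CPM in insulin-rich cells, lower in CCR2-DTR at 6 months. In WT at 6 months 1 barcode held 51.6% of the Nnat UMIs of these members.

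Among the 12 lowest genes by rule, Cox6a2 had the largest fold change. This muscle-type subunit of cytochrome c oxidase stood at 188, 150, 143 and 86.6 CPM in members, against 344, 407, 270 and 299 CPM in insulin-rich cells (log2 fold change -1.26, SE 0.11, edgeR adjusted p = 1.6e-08). Cox6a2 in deep unmixed barcodes was at -1.21 (edgeR adjusted p = 4.0e-07). Trpm5, a calcium-activated cation channel, stood at 183, 134, 253 and 176 CPM, against 291, 279, 393 and 385 CPM (-0.92, edgeR adjusted p = 1.4e-07; -0.85 and 6.2e-06 in deep unmixed barcodes). The link protein Hapln4 (-0.77), the ryanodine receptor partner Fkbp1b (-0.75), the granule GTPase Rab3d (-0.71), the protease Prss53 (-0.71), Dapl1 (-0.73), Tmigd3 (-1.01) and Spc25 (-0.69) were on the list with Sdf2l1 and Ucn3. All 12 were also called lower in deep unmixed barcodes, from -0.56 to -1.21. Of the 12 lowest of that second fit, 8 are the same genes, and the others are Cntnap2, G6pc2, Cebpd and Dnm3. Spc25, a kinetochore subunit, and G6pc2 start within 5000 bases of each other on chromosome 2 and run in opposite directions. Tmigd3 overlaps Adora3 on its own strand, so reads of these 2 may be shared. Cox6a2 overlaps Itgad and Trpm5 overlaps Tssc4, each on the opposite strand, and Trpm5 and Cd81 lie within 5000 bases of each other on opposite strands.

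Genes of protein folding in the endoplasmic reticulum were lower relative to RNA other than insulin. Of 25 unfolded protein response genes tested, 20 were lower and 0 higher over all members (list median -0.34), and 7 were lower and 0 higher in deep unmixed barcodes (median -0.21, with 23 of 25 below 0); on sizes over all UMIs 6 were higher and 2 lower, with a median of 0.15 where all genes had 0.47. Thinned to 5000 UMIs, 4 of 24 were lower and 0 higher. Sdf2l1, a partner of the chaperone BiP, stood at 650, 350, 223 and 215 CPM in members, against 914, 724, 314 and 351 CPM in insulin-rich cells (log2 fold change -0.76, edgeR adjusted p = 2.8e-06; -0.59 and 1.4e-04 in deep unmixed barcodes). Manf, a secreted folding factor, stood at 1109, 886, 669 and 591 CPM, against 1399, 1206, 899 and 910 CPM (-0.52, edgeR adjusted p = 4.8e-05; -0.33 and 0.0028). Both genes were lower in members in 4 of 4 libraries. Dnajb9, Pdia6, Calr, Edem1 and Derl3 were the other 5 called in both fits. Hspa5, which encodes BiP, was at -0.25 over all members (edgeR adjusted p = 0.041) and at -0.11 in deep unmixed barcodes (edgeR adjusted p = 0.552). From the beta identity list, Ero1lb, the oxidase that restores the enzyme for proinsulin's disulfide bonds, stood at 1223, 1187, 1069 and 871 CPM, against 1593, 1718, 1584 and 1385 CPM (-0.60, edgeR adjusted p = 6.1e-06; -0.62 and 1.9e-05).

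Granule genes moved less evenly. Of 23 tested, 10 were lower and 0 higher over all members, but in deep unmixed barcodes 2 were lower and 1 higher; their median was -0.23 and -0.07 in these fits. On sizes over all UMIs the calls turned, to 12 higher and 0 lower with a median of 0.24, where all genes had 0.47. Cpe, which trims prohormones, fell by 0.53 on the log2 scale over all members and by 0.38 in deep unmixed barcodes (edgeR adjusted p = 2.6e-05 and 4.1e-04), and the granin Scg2 fell by 0.42 and 0.24. The granin Chgb was higher in deep unmixed barcodes, at 1919, 1808, 1500 and 2614 CPM in members and 1435, 1420, 1408 and 1670 CPM in insulin-rich cells (0.34, edgeR adjusted p = 0.0056), and at 0.06 over all members (0.741).

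Genes higher in deep unmixed members were led by Stmn1, Cpb2, Cd81, Rbp4, Tspan8, Gpx3, Cd44, Gria2, Hist3h2ba, Fxyd3, Dbpht2 and Folr1, chosen by the rule for named genes after the first fit was seen; none is among the 12 highest over all members. Cd81, a tetraspanin described as a marker of immature beta cells, stood at 286, 291, 239 and 349 CPM in deep unmixed members, against 132, 106, 71.0 and 91.7 CPM in insulin-rich cells (log2 fold change 1.45, SE 0.10, edgeR adjusted p = 1.5e-10). Its 2 classes were far apart in every library. Rbp4 stood at 451, 518, 268 and 383 CPM, against 267, 169, 106 and 71.7 CPM (1.39, edgeR adjusted p = 3.3e-07), and 1 barcode held 56.3% of its UMIs in WT at 6 months. Gpx3 stood at 251, 178, 179 and 194 CPM, against 129, 112, 63.5 and 70.4 CPM (1.02, edgeR adjusted p = 3.3e-07). The AMPA receptor subunit Gria2 stood at 71.1, 50.1, 102 and 134 CPM, against 37.2, 40.4, 40.6 and 40.2 CPM (0.98, edgeR adjusted p = 5.9e-05). Stmn1, which destabilises microtubules, stood at 33.9, 149, 8.60 and 9.57 CPM, against 16.8, 17.2, 2.55 and 3.25 CPM, highest in WT at 1 month (2.04, edgeR adjusted p = 1.6e-05). The thioredoxin inhibitor Txnip stood at 369, 191, 547 and 1076 CPM, against 237, 184, 336 and 355 CPM (0.74, edgeR adjusted p = 6.3e-04), close to even in WT at 1 month. The cell cycle inhibitor Cdkn1a stood at 81.6, 127, 114 and 98.1 CPM, against 60.2, 66.0, 87.3 and 47.4 CPM (0.60, edgeR adjusted p = 8.5e-04), and Ccnd1, a cyclin, fell by 0.51 (edgeR adjusted p = 0.0010).

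Of the immature and disallowed genes, 7 of 9 tested were higher over all members and 0 lower. In deep unmixed barcodes 5 could be tested and 3 were higher, among them Cd81 and the endocrine progenitor factor Neurog3 (1.84, edgeR adjusted p = 0.018, at a mean of 5.65 against 1.58 CPM there). Ldha, Rest, Igfbp4 and Maf, higher over all members, lay under the count filter. Delta cell markers other than Sst were higher for 3 of 4 tested in both fits, among them Rbp4 and Cd24a, and gamma cell markers outside the rule for 4 of 5 and 3 of 5, among them Tspan8 and Etv1. The filter for deep unmixed barcodes does not use these lists, and whether mixtures with delta or gamma cells remain was not tested. Of 8 alpha cell markers tested, 1 was higher and 1 lower in each fit, 5 lay above 0, and the list's median was 0.18 over all members and 0.30 in deep unmixed barcodes. The lower one was Ttr, which fell by 0.46 and 0.36 in these fits (edgeR adjusted p = 1.9e-04 and 0.0016). Immediate early and dissociation genes were higher for 14 of 24 over all members and for 1 of 24 in deep unmixed barcodes, which was Jun (0.37, edgeR adjusted p = 0.010). Oxidative phosphorylation genes had 6 of 41 lower over all members and 0 of 41 called in deep unmixed barcodes, where 1 had an unadjusted p under 0.05. On sizes over all UMIs 35 of these 41 were higher and 0 lower (median 0.29, all genes 0.47). A planned second filter left out every barcode with UMIs of 2 or more markers of another kind at its own depth, with no added UMI floor. It kept 518, 115, 140 and 185 members, and dropped 6.90% to 28.6% of shallow members and 33.3% to 42.9% of the others. Shallow members thus weigh more in it than in deep unmixed barcodes. It left 36 higher and 13 lower genes, among them 3 of 31 beta identity genes (median -0.15) and 1 of 25 unfolded protein response genes (median -0.30).

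**Figure D4:**
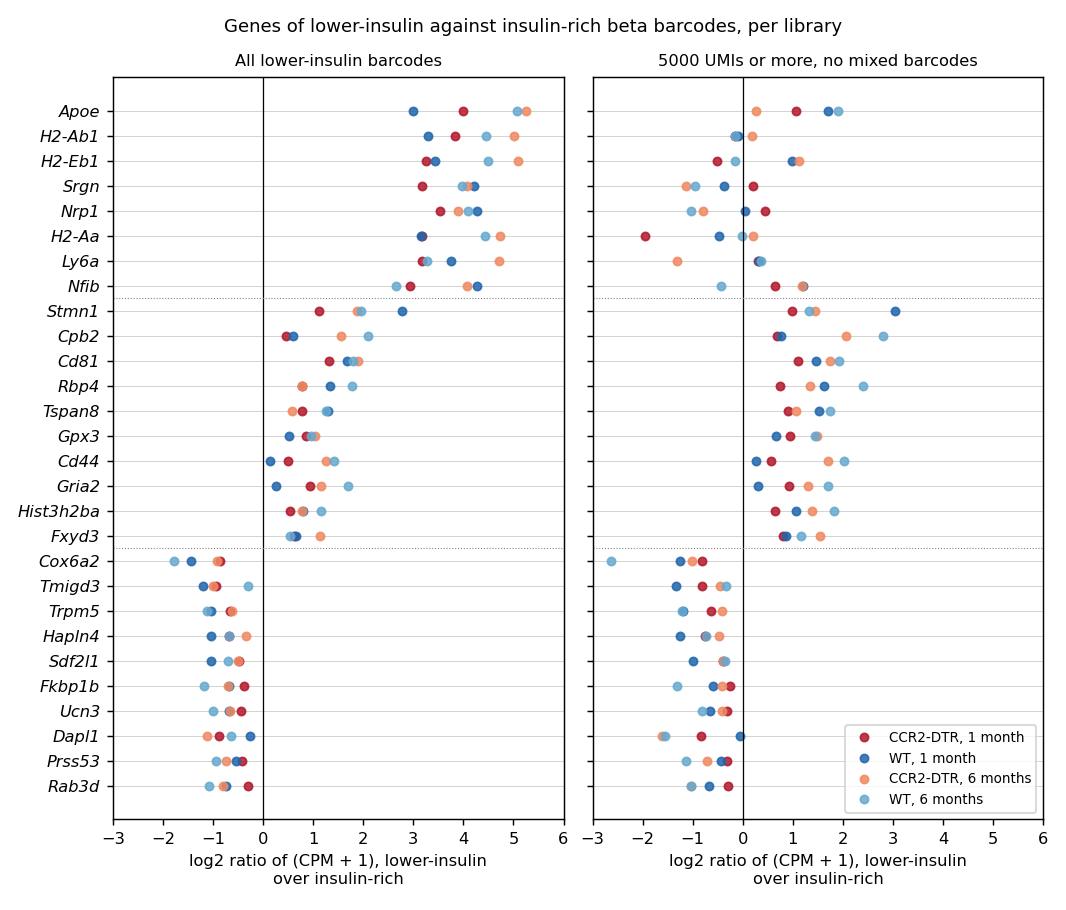
Log2 ratio of CPM + 1 in members over insulin-rich cells (horizontal axis), 1 point a library, for the 8 highest genes over all members (top), the 10 highest in deep unmixed barcodes (middle) and 10 of the 12 lowest over all members (bottom); all members on the left, deep unmixed barcodes on the right. The top block is above 0 in every library on the left, and on the right H2-Ab1 and H2-Aa have log2 fold changes of -0.16 and -1.50, while the middle block stays above 0 and the bottom block below 0 on both sides.

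Along the insulin share these differences formed gradients that ran on inside the insulin-rich cells. In deep unmixed barcodes of CCR2-DTR at 1 month, Cd81 was at 442 CPM in cells with 20% to under 25% insulin, 347 at 25% to under 30%, 243 at 30% to under 35%, 180 at 35% to under 40%, 142 at 40% to under 45%, 96.4 at 45% to under 50% and 56.5 at 50% or more. In WT at 1 month Cd81 was at 434, 440, 238, 175, 140, 102 and 88.3 CPM over the same steps. From 25% insulin on it declined in every step of all 4 libraries, and below that its order varied. Cox6a2 ran the other way, at 117, 121, 233, 271, 308, 402 and 545 CPM in CCR2-DTR at 1 month and 0, 50.3, 221, 270, 293, 380 and 483 CPM in WT at 1 month. It was at 122.5, 163, 124.5, 147, 193, 238 and 403 CPM in CCR2-DTR at 6 months and at 11.5, 57.25, 57.4, 125, 194.5, 275 and 439 CPM in WT at 6 months. From 30% insulin on Cox6a2 climbed in every step of all 4 libraries, and below that its order was uneven in CCR2-DTR at 6 months. Ucn3 was highest between 35% and under 50% in each library. It was at 374, 453, 600, 683, 683, 669 and 653 CPM in CCR2-DTR at 1 month and at 217, 314, 470, 607, 669, 707 and 635 CPM in WT at 1 month. At 6 months it was at 327, 475.5, 447, 576, 625, 604 and 574 CPM in CCR2-DTR and at 196, 188, 421, 565, 590, 540 and 501 CPM in WT. Bands under 30% rest on few cells, 32 and 86 in CCR2-DTR at 1 month, 10 and 21 in WT at 1 month, 4 and 12 in CCR2-DTR at 6 months and 7 and 11 in WT at 6 months. These values describe cells of the same libraries, and no test was made across bands.

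**Figure D5:**
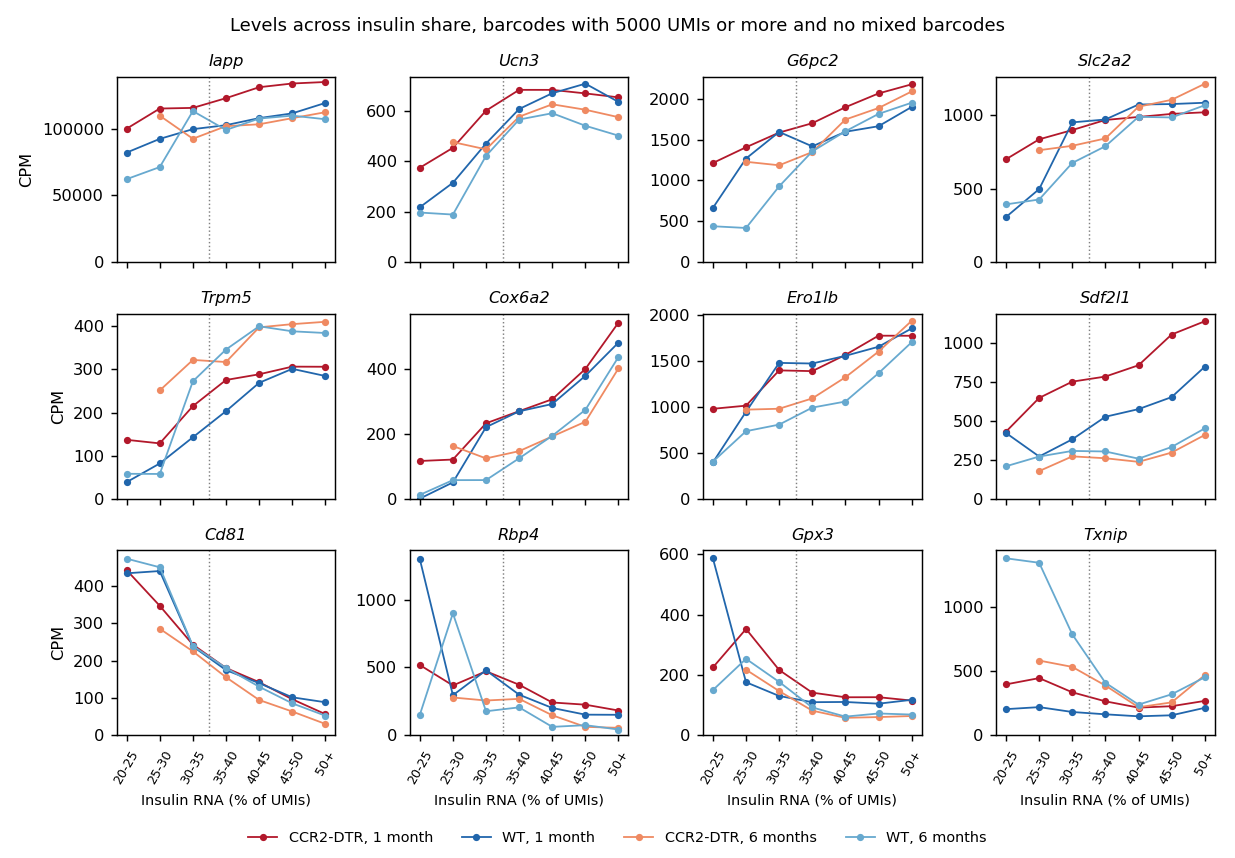
CPM of 12 genes (vertical axes) by insulin share of the barcode (horizontal axis, percent of UMIs) in deep unmixed barcodes, 1 line a library, bands with at least 5 cells; the dotted line is the 35% border between members and insulin-rich cells. From 25% on Cd81 declines and from 30% on Cox6a2 climbs in every library, while Ucn3 is highest between 35% and under 50%; below 30% the lines are uneven and rest on few cells.

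Between genotypes at 1 month, members differed in few genes. Of 4108 genes with at least 50 CPM in 1 of the 2 libraries, 47 (1.14%) were more than 1.5-fold higher in CCR2-DTR and 156 (3.8%) lower, with a counting interval that excludes 1; in deep unmixed barcodes it was 61 (1.51%) and 107 (2.65%) of 4044. Rgs2, a regulator of G-protein signalling, was highest, at 450 CPM in CCR2-DTR and 89.1 in WT (ratio 5.05, 4.15 to 6.20), and its ratio was 4.83 in insulin-rich cells. Errfi1, an inhibitor of EGF receptors, was at 57.7 against 18.96 CPM (3.04, 1.97 to 4.909). Msln was at 108 against 47.0 CPM (2.29, 1.73 to 3.08), Car15 at 289 against 138 CPM (2.10, 1.78 to 2.48), Usp51 at 75.8 against 37.9 CPM (2.00, 1.46 to 2.80) and Tubb2a at 88.0 against 45.4 CPM (1.94, 1.45 to 2.63). In insulin-rich cells the ratios of these 4 were 1.53, 1.67, 1.86 and 1.36. Among unfolded protein response genes, Sdf2l1 was at 650 CPM in CCR2-DTR and 350 in WT (1.86) and Creld2 at 287 against 178 CPM (1.61), and Edem1 was lower, at 51.2 against 77.5 CPM (0.661). Of 41 oxidative phosphorylation genes 8 were lower and 0 higher (median log2 ratio -0.39, all genes -0.01), such as Ndufc1 at 123 against 221 CPM, and 17 of 75 ribosomal protein genes were lower. The metallothioneins Mt1 (295 against 551 CPM) and Mt2 (44.4 against 87.4 CPM) were lower as well.

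Among the lowest genes in CCR2-DTR members at 1 month, Ghrl, the gut hormone ghrelin, was at 7.64 CPM in CCR2-DTR and 2452 in WT, but 2968 of the 2974 WT UMIs came from 1 barcode with 14.7% Ghrl and 20.1% insulin, which also passed the filter for deep unmixed barcodes. Eln (14.7 against 59.4 CPM), Pcdh17 (19.8 against 74.2), Plpp1 (38.2 against 134) and Thbs1 (21.5 against 74.2) fell under the CPM floor in deep unmixed barcodes of both libraries. Stmn1 was lower with them, at 38.5 CPM in CCR2-DTR and 127 in WT, and stayed lower there (ratio 0.227, 0.173 to 0.298). Beside this, 10 of 10 endothelial markers and 6 of 7 mesenchymal markers were lower in CCR2-DTR, with summed levels of 0.0482% against 0.110% and 0.0523% against 0.104% of member UMIs and 0 of 12 markers of either list at 0.

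At 6 months 180 of 4449 genes (4.05%) were higher in CCR2-DTR members and 175 (3.93%) lower, and 163 (3.72%) and 156 (3.56%) of 4379 in deep unmixed barcodes, which number 49 and 35. Id1 was at 62.8 CPM in CCR2-DTR and 2.79 in WT, Mgp at 217 against 39.1, Gsn at 188 against 41.9, Ptn at 54.3 against 12.6 and Serpinh1 at 62.8 against 15.4 CPM. Many of these UMIs lay in 1 CCR2-DTR barcode per gene: 78.4% for Ptn, 49.5% for Mgp, 47.5% for Gsn, 39.0% for Serpinh1 and 22.0% for Id1. In deep unmixed members Gsn was at 56.8 CPM in CCR2-DTR and 50.2 in WT (ratio 1.13, 0.635 to 2.055), Serpinh1 had 5 UMIs against 3, and Id1, Mgp and Ptn were under the CPM floor. The complement gene C3 was at 67.1 CPM in CCR2-DTR and had 0 UMIs in WT, at least 16.0-fold higher when the WT sum is set to 3 counts, and 61 of its 63 UMIs came from 1 barcode. Ms4a7 (8.52 against 68.4 CPM), Ctsh (11.7 against 57.3) and Laptm5 (12.8 against 54.5), genes of macrophages, were lower, with 59.2%, 51.2% and 71.8% of the WT UMIs in 1 barcode each. The marker lists moved alike: 8 of 8 macrophage markers were lower (0.0530% against 0.117% of UMIs), 6 of 8 endothelial markers higher (0.0831% against 0.0458%) and 12 of 12 digestive enzymes higher (0.0814% against 0.0190%). In insulin-rich cells these lists stood at 0.00640% against 0.007945%, 0.00436% against 0.00243% and 0.0212% against 0.002365%. The difference in digestive enzymes was thus not particular to members. Hist2h2aa1, a histone gene, was at 6.39 CPM in CCR2-DTR and 61.5 in WT (ratio 0.104, 0.0362 to 0.245; 0.123 in insulin-rich cells) and Cish, a feedback inhibitor of prolactin and growth hormone signalling, at 21.3 against 96.4 CPM (0.221; 0.182 in insulin-rich cells, and 0.492 with an interval of 0.223 to 1.05 in deep unmixed members). Among stress genes, Ddit3 was at 100 CPM in CCR2-DTR and 36.3 in WT (2.76) and Herpud1 at 307 against 159 CPM (1.93), with ratios of 1.44 and 1.36 in insulin-rich cells. The granins Chga (12806 against 19750 CPM) and Chgb (1269 against 1943 CPM) were lower, at ratios of 0.648 and 0.653, and Txnip was at 492 against 763 CPM (0.645).

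Between genotypes, 3 genes passed 1.5-fold as higher in CCR2-DTR members at both ages and 4 as lower. The 3 are 6.38% of the genes higher at 1 month, beside 4.05% of all genes that were higher at 6 months, and the 4 are 2.56% of those lower at 1 month, beside 3.93% of all genes lower at 6 months, so neither share is far from that of all genes. Msln and Mthfd2, a mitochondrial folate enzyme, were 2 of the 3 higher genes: Mthfd2 was at 80.9 against 51.1 CPM at 1 month (1.58, 1.20 to 2.12) and 154 against 96.4 CPM at 6 months (1.60, 1.20 to 2.17), with ratios of 0.821 and 1.14 in insulin-rich cells. Among the 4 lower genes were H2-Eb1, H2-Aa and H1fx. H2-Aa had UMIs in 12 and 6 members of CCR2-DTR and WT at 1 month and in 12 and 9 at 6 months. A single barcode held 27.15%, 56.1%, 48.9% and 57.0% of them. For H2-Eb1 it was 15, 10, 16 and 8 members, with 28.5%, 46.2%, 55.7% and 55.7% in a single barcode. Deep unmixed members kept 2, 1, 3 and 1 UMIs of H2-Aa and 8, 4, 6 and 1 of H2-Eb1. H1fx, a linker histone, was at 41.0 against 66.8 CPM at 1 month and 21.3 against 55.9 CPM at 6 months.

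More genes passed 1.5-fold between ages than between genotypes, and the share of shallow members differed between ages too. In WT members 667 of 4472 genes (14.9%) were higher at 6 months and 584 (13.1%) lower, and in deep unmixed barcodes 353 (8.09%) and 338 (7.75%) of 4362. In CCR2-DTR members 390 of 4327 (9.01%) were higher and 250 (5.78%) lower, and 336 (8.01%) and 262 (6.25%) of 4194. Both genotypes shared 164 higher genes, 24.6% of the WT and 42.1% of the CCR2-DTR calls, and 127 lower genes, 21.7% and 50.8%. The stress-induced gene Nupr1 was at 94.96 CPM at 6 months and 23.1 at 1 month in WT (ratio 4.11, 2.61 to 6.64) and at 198 against 14.7 CPM in CCR2-DTR (13.5, 9.85 to 18.7), and at 9.15 and 20.1 times its 1-month level in insulin-rich cells of WT and CCR2-DTR; 1 barcode held 21 of its 28 UMIs in WT at 1 month. The non-coding RNA Snhg11 was at 135 against 10.7 CPM in WT (12.6, 7.05 to 24.6) and 75.6 against 14.99 CPM in CCR2-DTR (5.04, 3.48 to 7.34). The heat shock gene Hspa1b was at 92.2 against 37.1 CPM in WT and 89.4 against 26.9 CPM in CCR2-DTR, and Pid1 at 112 against 28.0 and 71.3 against 25.2 CPM. H2-Aa, H2-Ab1 and H2-Eb1 were higher in both genotypes and lay under the floor in deep unmixed barcodes.

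Among the genes lower at 6 months in both genotypes, Nnat was at 94.96 CPM at 6 months and 347 at 1 month in WT (ratio 0.274, 0.208 to 0.354) and at 74.5 against 556 CPM in CCR2-DTR (0.134, 0.104 to 0.170), against 0.283 and 0.408 in insulin-rich cells. Dapl1 was at 27.9 against 176 CPM in WT and 22.4 against 84.0 CPM in CCR2-DTR. The folding gene Fkbp11 was at 93.6 against 275 CPM in WT and 79.9 against 250 CPM in CCR2-DTR, and the peroxiredoxin of the endoplasmic reticulum Prdx4 at 27.9 against 94.0 and 22.4 against 50.4 CPM. The purinergic receptor P2ry1 (39.1 against 134 CPM in WT, 71.3 against 169 in CCR2-DTR) and the G-protein subunit Gng12 (233 against 912, 298 against 778) showed the same order, each with a ratio nearer to 1 in insulin-rich cells (0.786 and 0.692 for P2ry1, 0.452 and 0.508 for Gng12). Within the unfolded protein response list, CCR2-DTR members had 8 of 23 genes lower and 4 higher with age: Creld2 was at 70.3 against 287 CPM and Pdia6 at 456 against 937 CPM, while Ddit3 was at 100 against 29.4 CPM and Atf4, a transcription factor of the stress response, at 338 against 192 CPM. In WT members 6 of 22 were lower and 0 higher.

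Further genes and lists with the largest ratios between ages are given for each genotype; whether the genotypes differ in them was not tested. In WT members 28 of 41 oxidative phosphorylation genes were lower at 6 months (median log2 ratio -0.64, all genes -0.01), such as Atp5g1 at 272 against 615 CPM, and 10 of 41 in deep unmixed barcodes; in CCR2-DTR members 5 were lower and 1 higher. Nuclear non-coding RNAs were higher for 7 of 8 in WT and 4 of 8 in CCR2-DTR members, beside the larger share of shallow members at 6 months (76.0% against 17.4% in WT, 66.7% against 36.1% in CCR2-DTR). Cebpd (90.8 against 10.7 CPM), Hist2h2aa1 (61.5 against 7.42 CPM) and Cish (96.4 against 12.4 CPM) were among the highest in WT with Snhg11, and Ms4a7 was at 68.4 against 9.07 CPM. Cebpd was also higher with age in CCR2-DTR (ratio 2.08, 1.48 to 2.89). In insulin-rich WT cells Cebpd had a ratio of 18.4 and Cish of 13.3. Mt2, a metallothionein, was at 231 CPM at 6 months and 44.4 at 1 month in CCR2-DTR (5.20, 4.22 to 6.43) and at 201 against 87.4 CPM in WT, and Aldh1l2, a mitochondrial folate enzyme, at 56.4 against 9.34 CPM in CCR2-DTR (6.04, 3.84 to 9.64), with 43.3 CPM in WT at 6 months, where the comparison of ages lay under the CPM floor. Id1, Eln, Col6a3 and Thbs1 were lowest in WT with Ghrl and Stmn1, beside 6 of 6 mesenchymal markers lower, with 7 of 12 at 0 at 6 months. In CCR2-DTR members, Car15 was at 75.6 CPM at 6 months against 289 at 1 month (0.262, 0.203 to 0.333), Nrep at 14.9 against 54.6 CPM and Hist3h2ba at 29.8 against 101 CPM, with Creld2 and Dapl1 among the lowest too. In WT members Car15 (65.6 against 138 CPM), Creld2 (82.4 against 178 CPM) and Hist3h2ba (53.1 against 114 CPM) were lower at 6 months as well, and Nrep was at 34.9 against 51.95 CPM with an interval that includes 1. C3 and the digestive gene Sycn were high at 6 months in CCR2-DTR, beside 12 of 12 digestive enzymes, and the 1 digestive enzyme measured in WT was higher there too.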

How the data were processed

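Counts are the deposited UMI counts per gene and barcode, raw and not normalized. The authors made them with Cell Ranger 5.0.1 on mm10, per the submitters' processing notes; which annotation release they used is not given in the sources used here. Other deposited columns are names (barcodes, gene IDs) and no measurement. Barcodes were filtered and classed as the rule states. CPM and tests leave out the 29 genes the rule uses. Counts summed per library and class were tested with edgeR 4.0.16 in R 4.3.3, with DESeq2 1.42.0 as an alternative. The edgeR fit (quasi-likelihood, TMM, library as block, at least 10 UMIs in 4 of 8 sums) was tested on simulated data. Doublets were scored with Scrublet in scanpy 1.11.5 and removed only where stated; clustering used leidenalg 0.10.2. Shares have exact Clopper-Pearson 95% intervals (scipy 1.17.1) and CPM ratios exact conditional Poisson ones, for genes with 50 CPM in a library and 20 UMIs over both. A sum of 0 was set to 3 counts per library. Named genes were the 12 highest and 12 lowest called in 4 of 4 libraries at 50 CPM or more, and the 6 highest and 6 lowest ratios between libraries, leaving out marker, ribosomal, mitochondrial and predicted genes. Genes shared between ages or genotypes, up to 8 a direction, and examples of lists were also named. The members and lists were chosen with earlier results of these data known. No member barcode sequence was shared between libraries, and 6 to 34 barcodes of any kind were. Gene positions are from GENCODE on GRCm38. A few genes that the rules name are not reported here.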

Additional observations from a re-analysis of the deposited data

Results flagged for a closer look

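The following values differed in direction between the ages, and none of these differences was tested, since each group is 1 library. The share of lower-insulin cells among beta cells had a CCR2-DTR over WT ratio of 4.65 at 1 month and 0.563 at 6 months. In deep unmixed barcodes the ratios were 4.22 and 0.770, the second with an interval that includes 1. Mgp, a matrix protein, had a CCR2-DTR over WT ratio of 0.483 at 1 month and 5.55 at 6 months in members. Serpinh1, a collagen chaperone, had ratios of 0.641 and 4.09 at these ages. At 6 months 1 CCR2-DTR barcode held 101 of the 204 Mgp and 23 of the 59 Serpinh1 UMIs, and in deep unmixed members Serpinh1 kept 5 UMIs in CCR2-DTR against 3 UMIs in WT, while Mgp was under the CPM floor. Usp51, a deubiquitinase gene, had ratios of 2.00 and 0.591, against 1.86 and 1.20 in insulin-rich cells.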

How the results depend on the processing

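Shares are given for CCR2-DTR and WT at 1 month, then CCR2-DTR and WT at 6 months. With the band set to 20% to under 30% they were 12.75%, 1.549%, 10.7% and 22.14%, and at 3000 UMIs 15.65%, 4.042%, 5.551% and 7.806%. Thinned to 5000 UMIs they were 14.94%, 3.771%, 4.886% and 6.156%, and in deep unmixed barcodes 13.66%, 3.236%, 4.142% and 5.376%. With the band at 25% to under 35%, CCR2-DTR at 1 month had 17.22%, CCR2-DTR at 6 months 8.493% and WT at 6 months 13.1%. A mitochondrial limit of 10% gave 20.73% in CCR2-DTR at 1 month and 22.43% in WT at 6 months, and leaving out barcodes with 2 or more other markers gave 17.93% and 33.58% in CCR2-DTR and WT at 6 months.

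In the comparison of classes (940 higher, 557 lower), the counts were 1240 and 289 without TMM, 8126 and 24 on sizes over all UMIs, 1468 and 1303 with every gene, 570 and 68 with no library term, 561 and 287 without high Scrublet scores, 36 and 13 without barcodes holding 2 or more other markers, 199 and 121 thinned, 123 and 139 in deep unmixed barcodes, and 747 and 374 with DESeq2. Leaving out 1 library gave 741 to 909 higher and 196 to 525 lower genes. H2-Ab1 and H2-Aa turned to -0.16 and -1.50 in deep unmixed barcodes, and Cebpd and Dnm3 to 0.11 and 0.31 on sizes over all UMIs, where all genes shift.

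For CCR2-DTR over WT at 1 month, CPM over all UMIs gave 22 higher and 98 lower genes, no CPM floor 245 and 580, leaving out 2 or more markers 95 higher, and thinning 112 higher. At 6 months CPM over all UMIs gave 84 higher, no floor 320 and 295, and thinning 115 and 84. For 6 over 1 month in WT, no floor gave 1014 higher, thinning 250 and 312, 3000 UMIs 362 and 376, and deep unmixed barcodes 353 and 338. In CCR2-DTR, CPM over all UMIs gave 202 higher, no floor 994 and 454, and leaving out 2 or more markers 636 and 427. Mgp turned to a log2 ratio of -2.52 at 6 months without barcodes holding 2 or more other markers, and Dhrs4 to 0.0094 between ages in WT when thinned. The cause of these changes was not tested. No paired analysis was possible between genotypes or ages because each group holds 1 library; the comparison of classes has the library as a block.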
